A study of Homo sapiens with 4 samples.

Results

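The cytosolic ribosomal proteins are the protein parts of the ribosomes that translate nuclear-encoded mRNAs. Members were the genes whose symbols follow the names RPL, RPS, RPLP0 to RPLP2, RPS4X or RPSA with a number and, in some, a final A. This rule gave 77 of 23228 genes in the count files, 31 of the small and 46 of the large subunit, and it used no measured value. Of these, 75 had enough counts to be tested, and the others, RPL21 among them, were listed at 0 in every library.

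The 4 libraries came from A673, an established Ewing sarcoma cell line grown in DMEM with 10% fetal bovine serum and transfected by lipofection. Cells received either a scramble siRNA, called control here, or a FAT4 siRNA, with harvest for RNA at 24 h or at 48 h, so there were 4 groups of 1 library each. FAT4 encodes an atypical cadherin, and the question posed by the series title is what its depletion does to gene expression in these cells. Poly(A)-selected stranded libraries were sequenced and reads were counted per gene. All groups share the line and the transfection, no untransfected library was analysed here, and the number and sequence of the siRNAs were not given in the labels.

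Every cell makes ribosomal proteins in nearly equal numbers, because each ribosome holds a single copy of most of them. Their mRNAs are short and abundant, and they usually begin with a run of pyrimidines, the terminal oligopyrimidine (TOP) motif, through which the mTORC1 pathway and the RNA-binding protein LARP1 control their translation. Ribosomal protein genes have also left many processed pseudogenes in the human genome, which resemble the spliced mRNA. Heterozygous loss of several members causes Diamond-Blackfan anaemia, a failure of red cell production.

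Gene counts per library ran from 15196813 to 22625833. FAT4 itself had 3678 and 2992 counts in the control libraries at 24 h and 48 h and 1061 and 941 under its siRNA, a fitted log2 fold change of -1.25 ± 0.10 (SE, edgeR adjusted p = 8.65e-34). Of 9 Ewing sarcoma markers, CD99 was listed at 0 in every library and the other 8 were detected, with a summed level of 3919 to 4744 CPM, which is a count scaled to a fixed library total. The 9 markers of blood, epithelial, endothelial, muscle and glial cells summed to 158 to 209 CPM, 7 of them lay under 1 CPM in each library, and KRT8 and KRT18 made up nearly all of the sum.

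The sequences at the annotated start of transcription are shown for members that were called higher or lower between the siRNAs, since this is where the TOP motif lies. Each line holds 30 bases of RefSeq GRCh38.p14, 5′ to 3′ on the strand of the gene, beginning 10 bases before an annotated start. Capitals mark an unbroken run of at least 5 bases, each C or T, whose first base lies within 5 bases of the start. Where a gene had several annotated starts, the one with the longest run was taken, for members and all other genes alike. Genes with more starts thus had more chances of a run. Among members called lower under FAT4 siRNA, these windows carried such a run:
RPL13, chr16:89560672-89560701, plus strand: gggccgCTTCCTTTCCgctcggctgttttc
RPLP1, chr15:69452808-69452837, plus strand: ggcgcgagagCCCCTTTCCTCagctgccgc
RPL18, chr19:48619159-48619188, minus strand: agcccgTTCTCTCTTTCCggacctggccga
RPL22, chr1:6199576-6199605, minus strand: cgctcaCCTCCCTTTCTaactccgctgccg
RPL35A, chr3:197950180-197950209, plus strand: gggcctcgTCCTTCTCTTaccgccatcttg
RPL38, chr17:74203668-74203697, plus strand: aagtctcgTTCTTTTTCgtccttttccccg
Those called higher under FAT4 siRNA also carried such a run:
RPL10, chrX:154398367-154398396, plus strand: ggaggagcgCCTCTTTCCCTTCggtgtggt
RPL10A, chr6:35468391-35468420, plus strand: aagacatgctagTCTCTTTTCCggttagcg
RPS12, chr6:132814559-132814588, plus strand: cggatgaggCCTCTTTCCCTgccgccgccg
RPS18, chr6:33272065-33272094, plus strand: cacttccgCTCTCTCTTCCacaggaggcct
RPS29, with the largest change between the siRNAs, RPS15 and RPL29 had no run of this length that begins within 5 bases of the annotated start:
RPS29, chr14:49598691-49598720, minus strand: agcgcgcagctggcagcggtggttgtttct
RPS15, chr19:1438386-1438415, plus strand: aggcgcggaccaaagcgatctcttctgagg
RPL29, chr3:51995876-51995905, minus strand: cagcccctttctcttccggttctaggcgct
The table of start sites held 62 of the 77 members, and 46 of them (74.2%) had the run, against 7882 of 27305 genes (28.9%). A match is a description of these letters and not a measured start of transcription. With the looser rule that the run only overlaps the 5 bases on either side of a start, 58 of 62 members and 40.8% of all genes had it. Members without the first kind of run therefore include some with pyrimidines across the start, such as RPL29. The split by that run is thus not one of TOP against other mRNAs. Of the 46 tested with the run, 4 were called higher and 6 lower under FAT4 siRNA, and of the 15 tested without it 0 were called higher and 3 lower. These shares called, 21.7% and 20%, are near or below the 25.9% of all genes tested that were called (11.9% higher and 14.1% lower). The length of the run and the fitted siRNA change had a Pearson correlation of 0.25 and a Spearman correlation of 0.15 over 61 members, which share the same 4 libraries. Over the 56 members of at least 5 CPM other than RPS29 the Pearson correlation was 0.10.

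The counts of many members describe only the reads that could be placed on them. Coding sequences from GENCODE release 29 were split into every 50-base word, and a word was scored as shared when it occurred in a transcript of another gene that does not overlap the locus. In the median member 48.8% of words were shared. All words were shared in 8 members, namely RPL21, RPL36A, RPL39, RPL41, RPS10, RPS26, RPS27 and RPS28. The median level of these 8 was 9.89 CPM per kilobase (kb) of coding sequence. The 14 members with under 10% of words shared had a median level of 782 CPM per coding kb, the 26 members at 10 to 50% had 547, and the 29 members from 50% to under 100% had 229. Across the 75 tested members the share of shared words and the level had a Pearson correlation of -0.72 and a Spearman correlation of -0.81, over levels taken from the same 4 libraries.

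**Figure D1:**
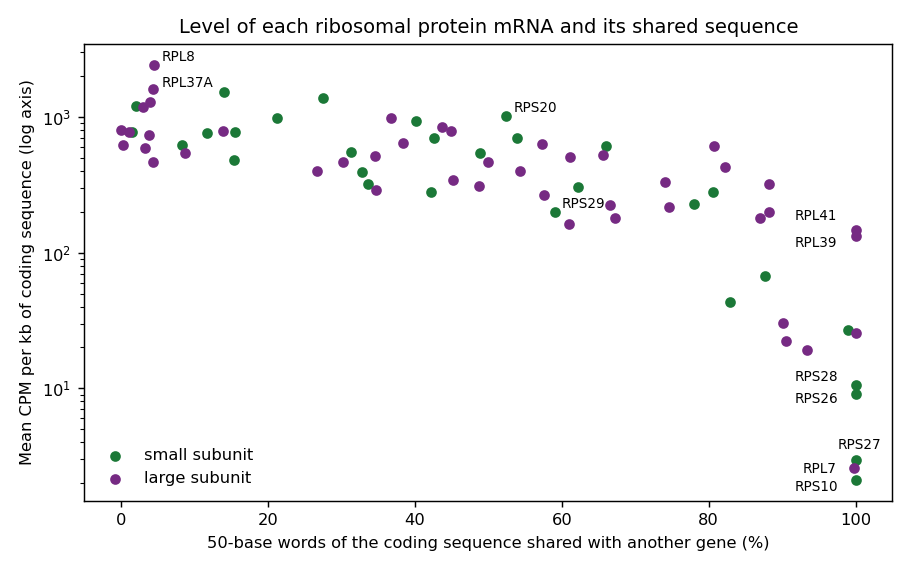
Mean level of each of the 75 members with counts, in CPM per kb of coding sequence on a log axis, against the percentage of its 50-base coding words that another gene shares; green points are small and purple points large subunit members. Members with every word shared lie at the right edge at 148 CPM per coding kb or lower, while RPL8, at 4.55% shared, has the highest level at 2429.

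RPL21, part of the large subunit, shared its words with 64 other genes and had 0 counts in all 4 libraries. The readthrough genes that span RPL17, RPL36A and RPS10 were at 0 as well. A count of 0 allows up to 3 counts, or 0.134 to 0.203 CPM by library, of reads that could be placed, and since every cell uses this gene a listed 0 says nothing about the mRNA. At the low end among tested members, RPS10 had 31, 25, 10 and 14 counts in control 24 h, control 48 h, FAT4 siRNA 24 h and FAT4 siRNA 48 h, and RPS27 had 21, 9, 7 and 18. In all, 70 members had a mean of at least 5 CPM and 7 lay below it. The count files held 27 ribosomal protein pseudogenes, 6 of them at 0 throughout, and their summed counts came to 0.868% to 1.01% of those of the members.

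Per kb of coding sequence RPL8, a core protein near the peptidyl transferase centre, was the highest member in each library, at 2689, 2357, 2413 and 2257 CPM per coding kb in the same library order. Among other high members RPL37A stood at 1514 to 1761, RPS3 at 1270 to 1414, RPL30 at 1206 to 1399 and RPS19 at 1059 to 1354. The ranges over libraries of RPS3, RPL30 and RPS19 overlapped, so their order was not resolved, while that of RPL8 stood clear of all the rest. The median over the 77 members was 463 CPM per coding kb.

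Together the members took a small share of each library, lower at 48 h under each siRNA and a little lower under FAT4 siRNA at each time. The share of gene counts was 2.125% in control 24 h (95% exact binomial interval 2.119 to 2.131%), 1.938% in control 48 h (1.932 to 1.944%), 2.004% in FAT4 siRNA 24 h (1.997 to 2.011%) and 1.889% in FAT4 siRNA 48 h (1.883 to 1.896%). RPL8 alone supplied 9.07 to 9.67% of the member counts. For the ratios that follow, each library total was first multiplied by a TMM scaling factor. That factor was 0.987 and 1.026 in control and 0.973 and 1.015 under FAT4 siRNA, at 24 h and 48 h. The summed member level under FAT4 siRNA came to 0.957 of that in the control at 24 h (exact 95% counting interval 0.952 to 0.961) and 0.986 at 48 h (0.981 to 0.990). From 24 h to 48 h it went to 0.878 of its start under control siRNA (0.874 to 0.881) and to 0.904 under FAT4 siRNA (0.899 to 0.908). These intervals cover counting error only, and with 1 library per group the spread between cultures is unknown. The factor was higher at 48 h under each siRNA, so the ratios over time lie further below 1 than the unscaled shares do. CPM is a share of the reads, so a lower value can also mean more reads elsewhere, and in bulk libraries less RNA per cell and fewer expressing cells cannot be told apart.

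**Figure D2:**
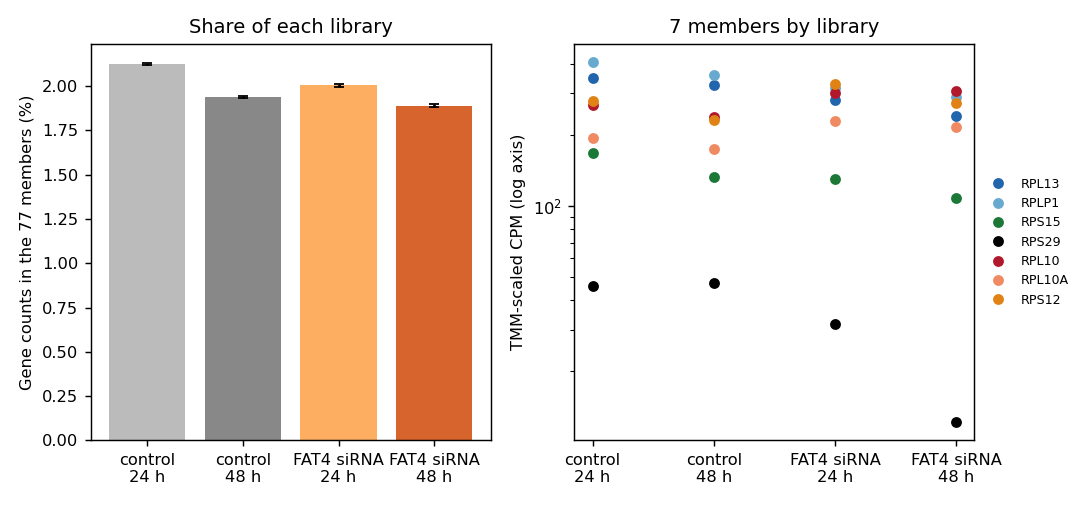
Left, share of all gene counts that falls in the 77 members in each library, in percent, with exact binomial 95% intervals; right, level of 7 members in each library in CPM scaled by TMM on a log axis, 1 point per library. The share lies between 1.889% and 2.125%, and RPS29 stands at 45.9 and 47.1 CPM in the control libraries against 31.8 and 12.2 under FAT4 siRNA.

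FAT4 siRNA was then compared with control in a fit of the whole table with a term for siRNA and a term for time, in which a gene counts as called at an adjusted p under 0.05. Of 75 members tested, 4 rose and 10 fell under FAT4 siRNA. That is 18.7% of members called, where 25.9% of all 13712 genes tested were called, 11.9% higher and 14.1% lower. The median log2 fold change was -0.06 over the members and -0.01 over all genes tested, and 40 members lay within 1.1-fold of no change. Of the 4 that rose and 10 that fell, 2 and 8 belonged to the large subunit, which had 45 members tested. The split depends on scaling, with 2 higher and 10 lower when plain library sizes were used and 8 higher and 9 lower with GC content and length corrected for. Because 1 residual degree of freedom remained, the fit took every gene's error from dispersion pooled over genes. The common biological coefficient of variation was 0.0737, and the SE values printed here come from the quasi-likelihood test and not from this number alone. DESeq2 with the same terms called 0 members higher and only RPL13 and RPLP1 lower, with 4 higher and 8 lower at an unadjusted p under 0.05. With the siRNA term alone and any of the 4 libraries left out, 0 members were called higher and 0 or 1 lower. The median over the members was then 0.0770 without control 24 h, -0.17 without control 48 h, -0.15 without FAT4 siRNA 24 h and 0.0506 without FAT4 siRNA 48 h. Each of these fits left the times unbalanced between the siRNAs, so its value mixes the siRNA with time.

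**Figure D3:**
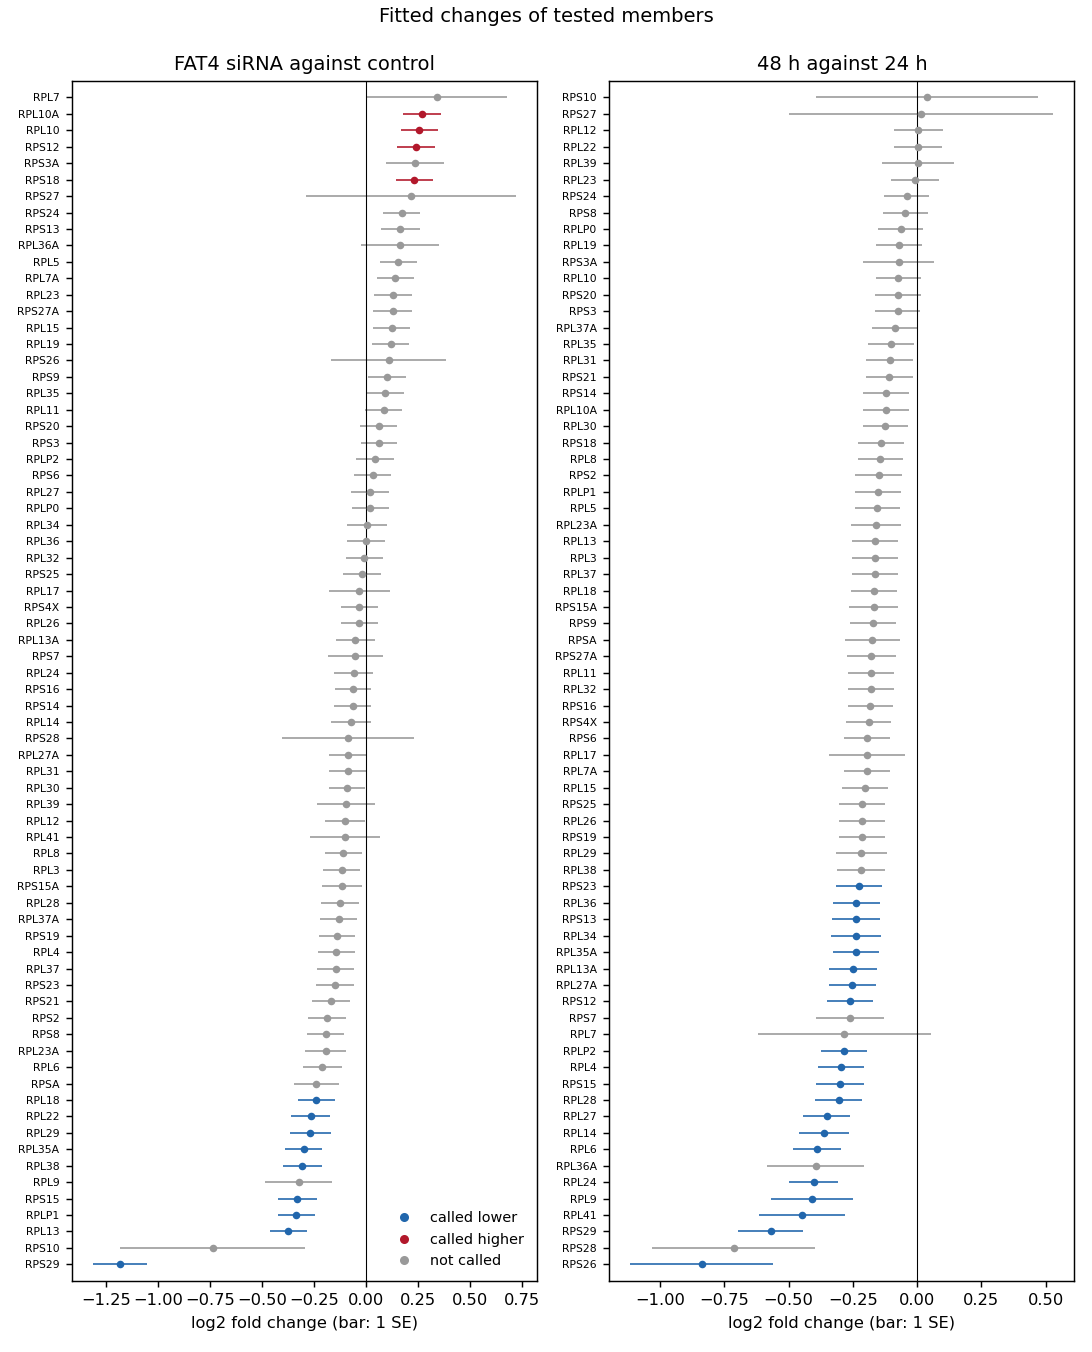
Fitted log2 fold change of 72 of the tested members, FAT4 siRNA against control on the left and 48 h against 24 h on the right, with bars of 1 SE; red and blue mark members called higher and lower at an adjusted p under 0.05. On the left the members lie on both sides of 0, from RPS29 at -1.18 to RPL7 at 0.34, and on the right nearly all lie at or below 0.

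Among the proteins of the P stalk, the flexible arm that recruits elongation factors, RPLP1 fell while the others were not called. RPLP1, the acidic protein that pairs with RPLP2, had 406 and 358 CPM in the control libraries at 24 h and 48 h and 315 and 289 CPM under FAT4 siRNA. Both FAT4 siRNA libraries lay below both controls, with a log2 fold change of -0.34 ± 0.09 (SE, edgeR adjusted p = 0.00156). Its partner RPLP2 had 231 and 194 CPM against 243 and 196 CPM, and its fitted change was 0.04 ± 0.09 (edgeR adjusted p = 0.761). RPLP0, the scaffold of the stalk, had a fitted change of 0.02 ± 0.09, and RPL12, which sits at its base, of -0.10 ± 0.10. RPL5 and RPL11, which carry the 5S rRNA and bind MDM2 when free of the ribosome, were not called either, at 0.16 ± 0.09 and 0.09 ± 0.09.

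RPL13, a large subunit protein whose gene also hosts a small nucleolar RNA, fell as well. It had 349 and 323 CPM in the control libraries and 280 and 240 CPM under FAT4 siRNA, with no overlap between the siRNAs. Of its words 49.9% are shared with other genes. Its log2 fold change was -0.37 ± 0.09 (edgeR adjusted p = 3.80e-04), and with GC content and length corrected for it was -0.21 (edgeR adjusted p = 0.0295). RPL38, known for its part in patterning of the mouse skeleton, had 197 and 180 CPM in control and 169 and 137 CPM under FAT4 siRNA, a log2 fold change of -0.31 ± 0.09 (edgeR adjusted p = 0.00638). None of its 50-base words is shared with another gene. RPL35A, a Diamond-Blackfan anaemia gene with 1.06% of its words shared, had 302 and 271 CPM against 260 and 208 CPM, and fell by 0.30 on the log2 scale (edgeR adjusted p = 0.00592). RPL18 went from 491 and 415 CPM to 395 and 370 CPM, a log2 fold change of -0.24 ± 0.09 (edgeR adjusted p = 0.0309). For RPL38, RPL35A and RPL18 too, both FAT4 siRNA values lay under both control values.

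RPL22 and RPL29 also fell, but most of their sequence is shared with other genes. RPL22, which lies near the exit of the peptide tunnel and binds viral and cellular RNAs, had 132 and 137 CPM against 114 and 110 CPM. Its words are shared to 88.2%, and its log2 fold change was -0.27 ± 0.09 (edgeR adjusted p = 0.0243). It was the only called member of 9 exit tunnel proteins, whose median change was -0.09. RPL29 had 99.4 and 88.3 CPM against 85.3 and 71.0 CPM and fell by 0.27 on the log2 scale (edgeR adjusted p = 0.0311). In both genes both control libraries were higher than both FAT4 siRNA libraries.

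In the small subunit RPS15 and RPS29 fell. RPS15, whose tail reaches toward the decoding site, was the only one of 9 proteins lining the mRNA channel to be called. It had 167 and 133 CPM in control and 130 and 108 CPM under FAT4 siRNA, so that FAT4 siRNA at 24 h lay only just under control at 48 h. Most of the sequence of RPS15 is shared too, at 62.2% of its words. The log2 fold change of RPS15 was -0.33 ± 0.09 (edgeR adjusted p = 0.00369). The channel proteins RPS2 and RPS23 had fitted changes of -0.19 and -0.15 with errors of 0.09 and were not called. Corrected for GC content and length, RPS15, RPL18 and RPL29 were no longer called, with log2 fold changes of -0.14, -0.07 and -0.18.

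RPS29, a short zinc-binding protein of the small subunit head, changed most. It had 1026 and 948 counts in the control libraries at 24 h and 48 h, and 470 and 190 counts under FAT4 siRNA. In CPM these are 45.9 and 47.1 against 31.8 and 12.2, so that the control libraries were alike and the FAT4 siRNA libraries lay below them by unequal amounts. As plain ratios, FAT4 siRNA stood at 0.692 of control at 24 h (exact 95% counting interval 0.619 to 0.773) and at 0.258 of it at 48 h (0.220 to 0.302). On the log2 scale of CPM plus a pseudocount of 1, the ratio was -0.52 at 24 h and -1.87 at 48 h. The additive fit gave a log2 fold change of -1.18 ± 0.13 (edgeR adjusted p = 8.03e-18), but DESeq2 gave -1.23 with an adjusted p of 0.241. With the siRNA term alone and without the FAT4 siRNA 48 h library the value was -0.52, and without FAT4 siRNA 24 h it was -1.93. Without control 24 h or control 48 h it stayed at -1.10 and -1.07. In each of these fits the times were unbalanced between the siRNAs. Its coding sequence has 171 bases, 59.0% of its 50-base words are shared with 3 other genes, and no 100-base word is, so the count is uncertain where short reads cannot be placed. No other zinc-binding member of the 7 listed was called, and RPL37 had a fitted change of -0.15 ± 0.09.

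The members that rose did so by about 1.2-fold or less. RPL10, an X-linked protein added late in large subunit assembly, had 268 and 238 CPM in control and 298.9 and 304.8 CPM under FAT4 siRNA, a log2 fold change of 0.26 ± 0.09 (edgeR adjusted p = 0.02). RPL10A, of the stalk that helps release the spent transfer RNA, had 194 and 175 CPM against 229 and 215 CPM, a log2 fold change of 0.27 ± 0.09 (edgeR adjusted p = 0.0152). RPS18 of the small subunit head had 307 and 281 CPM against 364 and 327 CPM, a log2 fold change of 0.23 ± 0.09 (edgeR adjusted p = 0.0386). In these genes both FAT4 siRNA values were above both control values. RPS12, also of the head, had 277 and 232 CPM against 328 and 274 CPM, a log2 fold change of 0.24 ± 0.09 (edgeR adjusted p = 0.0316). Its siRNA groups overlapped, because control at 24 h was above FAT4 siRNA at 48 h. RPL10 shares 82.2% of its words with 15 other genes and RPS18 shares 53.9% with 4, RPL10A shares 48.8% with 7 and RPS12 shares 42.6% with 10. Neither RPS18 nor RPS12 was called with plain library sizes, and DESeq2 called no member higher.

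Some members with fitted changes of like size had low counts and did not pass the test. RPL7 had 47, 27, 31 and 35 counts in the library order above and the highest fitted value of any member, 0.34 ± 0.34. RPS3A, with 98.9% of its words shared, had 0.24 ± 0.14, and RPS27 had 0.22 ± 0.51. At the other end RPS10 had -0.74 ± 0.44 and RPL9 had -0.32 ± 0.16. Among the 14 members with under 10% of words shared, 0 were called higher and 3 lower, and the 3 were RPL18, RPL35A and RPL38. That is 21.4% called, where 25.9% of all genes tested were called.

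By gene class, the counts called stand beside 18.7% of all tested members and 25.9% of all genes. Of 10 tested Diamond-Blackfan anaemia genes RPL35A alone (10%) was called, and RPS24, RPL5 and RPS10 had fitted changes of 0.17 ± 0.09, 0.16 ± 0.09 and -0.74 ± 0.44. Of 25 tested members that host small nucleolar RNAs in their introns 2 rose, RPL10 and RPS12, and RPL13 fell, which is 12% called. RPSA, also a laminin-binding protein, is such a host and had -0.24 ± 0.11. Of the 4 X-linked members RPL10 alone (25%) was called, while RPS4X had -0.03 ± 0.09, RPL36A 0.16 ± 0.19 and RPL39 -0.09 ± 0.14.

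The siRNA ratios at 24 h and at 48 h rest on separate pairs of libraries and can be set side by side. The ratio was below 1 in 47 members at 24 h, where it was in 53.1% of all genes, and in 46 at 48 h, where it was in 49.8%. At both times it was below 1 in 36 members (48% of those tested, where 37.7% of all genes were) and above 1 in 18 members (24%, where 34.8% of all genes were), and it changed side in 21. The median log2 ratio was -0.06 at either time, and the middle 50% of members ran from -0.19 to 0.09 at 24 h and from -0.17 to 0.09 at 48 h. The counting interval excluded 1 on the same side at both times in 23 members that were lower (17.5% of all genes) and 11 that were higher (16.2% of all genes), and such intervals narrow as counts rise. Across the 75 members the ratios at the 2 times had a Pearson correlation of 0.51, and of 0.64 over the 69 members of at least 5 CPM other than RPS29, with no replicate behind any point. The ratios differed by under 0.2 on the log2 scale in 57 members.

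**Figure D4:**
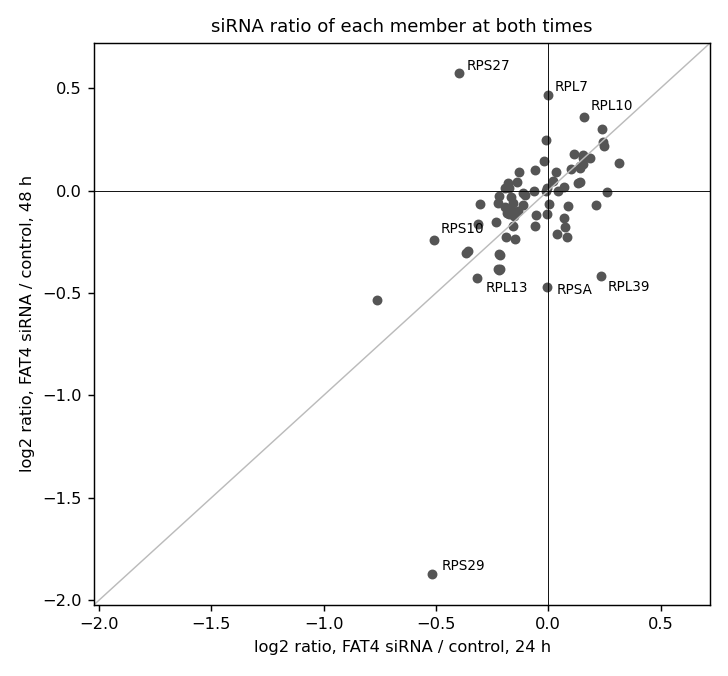
Log2 ratio of FAT4 siRNA to control of each of the 75 tested members, from CPM plus 1, at 24 h on the horizontal and at 48 h on the vertical axis, with 1 library per siRNA at each time; the grey line marks equal ratios. Most members lie near the line, and RPS29 lies far below it at -0.52 and -1.87.

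Besides RPS29, the ratio of RPSA, RPL39, RPS27A and RPL19 differed most between the times among members of at least 5 CPM. RPSA had 63.7 CPM in control and 63.5 CPM under FAT4 siRNA at 24 h, and 66.1 CPM and 47.4 CPM at 48 h. RPL39, which lines the exit tunnel, had 19.1 CPM and 22.6 CPM at 24 h and 23.9 CPM and 17.6 CPM at 48 h, so its direction turned between the times. RPS27A, made as a fusion with ubiquitin, had a log2 ratio of 0.26 at 24 h that was -0.01 at 48 h. RPL19 had -0.01 at 24 h and 0.24 at 48 h. With 1 library per group no test of these differences could be made, and all words of RPL39 and 87.6% of those of RPSA are shared with other genes.

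GC content moved with the siRNA ratio over the whole table. Across 12045 genes with a transcript in the annotation, the log2 siRNA ratio and GC content had a Pearson correlation of -0.50 at 24 h and -0.20 at 48 h. Over the 75 members the values were -0.28 at 24 h and -0.01 at 48 h. The part of GC content in the members' changes was not tested beyond the correction named above, under which 11 of the 14 called members kept their call. RPL13 has a GC content of 56.2%, RPLP1 47.7% and RPS29 46.0%, and among those that rose RPL10 has 52.2% and RPL10A 51.1%. These values, and those in the correction, are of whole transcript models, some of them long, such as 4498 bases for RPL13 with 636 bases of coding sequence.

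Time was compared in the same fit, and here the members moved mostly to the same side. At 48 h 21 of 75 members were lower than at 24 h and 0 were higher, a share of 28% lower, where 12.8% of all genes were called lower and 13.8% higher. At an unadjusted edgeR p under 0.05 the number higher was also 0, as it was with DESeq2. The median log2 fold change was -0.18 over the members and 0.01 over all genes tested, and 70 of 75 members had a value below 0. The median stayed below 0 under each scaling tried, at -0.12 with plain library sizes. The number called lower was 11 with plain library sizes, 44 with GC content and length corrected for and 5 with DESeq2, among them RPL24, RPL27, RPL4 and RPL6. With the time term alone and any of the 4 libraries left out, the median ran from -0.23 to -0.15. The siRNAs were then unbalanced between the times, so these values mix time with the siRNA.

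The direction was mostly shared by the siRNAs. From 24 h to 48 h, 69 members were lower under control (48% of all genes were) and 67 under FAT4 siRNA (49.4% of all genes were). In all, 61 members were lower under both siRNAs (81.3%, where 35.3% of all genes were) and 0 were higher under both (37.8% of all genes). The median log2 ratio was -0.18 under control and -0.18 under FAT4 siRNA. The counting interval excluded 1 on the lower side under both siRNAs in 51 members (68%, where 18% of all genes did). The sizes were hardly related, since the time ratio of a member under control and that under FAT4 siRNA had a Pearson correlation of 0.02 over 75 members and 0.21 over the 69 of at least 5 CPM other than RPS29.

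**Figure D5:**
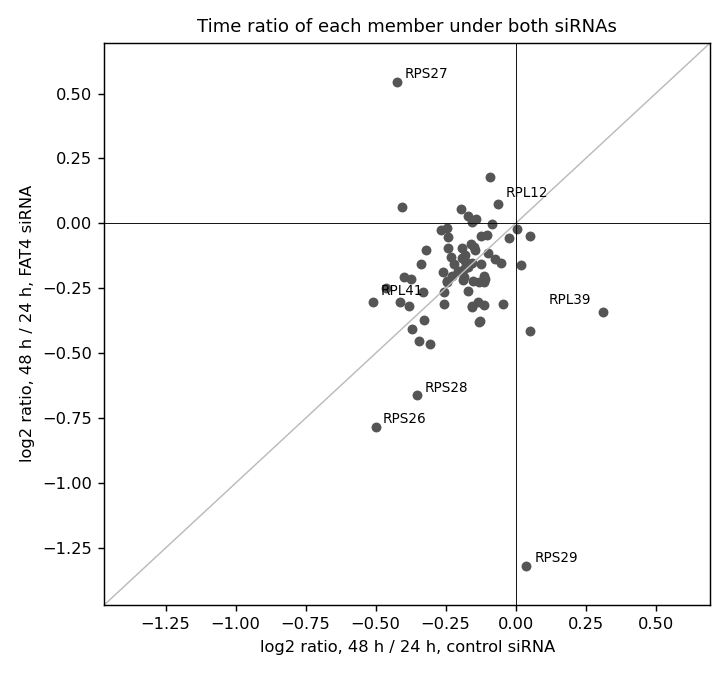
Log2 ratio of 48 h to 24 h of each of the 75 tested members, from CPM plus 1, under control siRNA on the horizontal and under FAT4 siRNA on the vertical axis, with 1 library per time under each siRNA; the grey line marks equal ratios. Of the members, 61 lie in the lower left field, and RPS29 lies apart at 0.04 and -1.32.

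Among members with large counts, falls included those of RPL24, RPL6, RPL14 and RPL27. Of their 50-base words 57.65%, 86.92%, 60.93% and 4.42% are shared with other genes, and RPL14 was not called with DESeq2. RPL24, a protein of the intersubunit bridge, had 144 and 144 CPM at 24 h in control and FAT4 siRNA and 113 and 105 CPM at 48 h, a log2 fold change of -0.40 ± 0.09 (edgeR adjusted p = 2.84e-04). RPL6 of the large subunit had 189 and 166 CPM at 24 h and 146 and 125 CPM at 48 h, a log2 fold change of -0.39 ± 0.09 (edgeR adjusted p = 3.48e-04). In both genes the 48 h libraries lay below the 24 h libraries without overlap.

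RPL27 had 210 and 217 CPM at 24 h and 167 and 167 CPM at 48 h and fell by 0.35 on the log2 scale (edgeR adjusted p = 0.00117). RPL14 had 126 and 112 CPM at 24 h and 91.4 and 93.8 CPM at 48 h and fell by 0.36 on the log2 scale (edgeR adjusted p = 0.00159). The 2 times did not overlap in either of these genes. RPL4, whose loop lines the exit tunnel, had 614 and 526 CPM at 24 h and 473 and 453 CPM at 48 h, with a log2 fold change of -0.30 ± 0.09 (edgeR adjusted p = 0.00557).

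The largest fitted falls with time came from members with fewer counts than most. RPS26, a Diamond-Blackfan anaemia gene with all words shared, had 83 and 66 counts at 24 h in control and FAT4 siRNA and 47 and 34 counts at 48 h, a log2 fold change of -0.84 ± 0.28 (edgeR adjusted p = 0.0139). RPS28 had 60 and 43 counts at 24 h and 38 and 23 counts at 48 h, with -0.71 ± 0.32, and was not called. RPL41, the shortest ribosomal protein, had 14.3 and 12.4 CPM at 24 h and 9.74 and 9.84 CPM at 48 h, a log2 fold change of -0.45 ± 0.17 (edgeR adjusted p = 0.0325). RPL9 had 15.98 and 13.53 CPM at 24 h and 12.7 and 9.53 CPM at 48 h, with -0.41 ± 0.16 (edgeR adjusted p = 0.0439). RPS29 was called at -0.57 ± 0.13 (edgeR adjusted p = 1.16e-04), but its control libraries were level over time. With the time term alone its value was 0.25 without FAT4 siRNA 48 h, -0.10 without control 24 h, -0.64 without FAT4 siRNA 24 h and -1.68 without control 48 h. In these fits the siRNAs were unbalanced between the times.

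The counts by role and sequence stand beside 28% of members and 12.8% of all genes called lower with time, and the small lists allow no reading of their shares. Of 9 mRNA channel proteins 4 fell, among them RPS15, RPS23 and RPS26. In the P stalk RPLP2 fell, at -0.28 ± 0.09, and RPLP1, RPLP0 and RPL12 had fitted values of -0.15, -0.06 and 0.00. RPL4 was the only called member of 9 exit tunnel proteins, and neither RPL5 nor RPL11 was called, at -0.15 ± 0.09 and -0.18 ± 0.09. The 5 members with a value above 0 were RPL12, RPL22, RPL39, RPS10 and RPS27, and the highest was RPS10 at 0.04 ± 0.43. RPL35A, RPS12, RPS15 and RPS29 were called in both comparisons, and of these RPS12 was higher under FAT4 siRNA and lower at 48 h. Of the 14 members with under 10% of words shared, 6 were lower at 48 h, among them RPL27, RPL28, RPL35A, RPL36 and RPLP2. Of the members with the start run 13 of 46 tested were lower (28.3%), and of those without it 7 of 15 (46.7%). By the looser rule 58 of 62 members had a run, so this split is not one of TOP against other mRNAs.

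Measures of the libraries also differed between the times. Reads on no annotated gene made up 19.5 and 19.6% of uniquely aligned reads at 24 h and 20.2 and 20.5% at 48 h in control and FAT4 siRNA. Alignments to several places numbered 44.6 and 44.1 per 100 uniquely aligned reads at 24 h and 43.1 and 43.7 at 48 h. The part of these measures in the members' fall was not tested. The 75 tested mitochondrial ribosomal proteins, which build the separate ribosome of mitochondria, also had 21 called lower and 0 higher at 48 h, with a median of -0.16. That is 28% lower, where 12.8% of all genes were called lower. The shortest quartile of transcripts, up to 1976 bases, had a median of -0.03 over 3012 genes. Under FAT4 siRNA 9 mitochondrial ribosomal proteins rose and 10 fell, with a median of 0.04. That is 25.3% called, near the 25.9% of all genes.

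Genes that make, replace or control ribosomal proteins moved in part. Among 6 tested paralogs outside the naming rule RPS27L, a p53-responsive copy of RPS27, rose under FAT4 siRNA, from 14.1 and 14.4 CPM in control to 25.2 and 27.1 CPM, a log2 fold change of 0.88 ± 0.14 (edgeR adjusted p = 3.04e-08). Both FAT4 siRNA libraries lay above both controls. RPL22L1, the copy of RPL22, had 0.15 ± 0.13 for the siRNA, and fell with time by 0.42 on the log2 scale (edgeR adjusted p = 0.00963). RPL39L, the copy of RPL39, rose with time, with 0.35 ± 0.13 (edgeR adjusted p = 0.0389). FAU, which encodes a ribosomal protein fused to a ubiquitin-like protein, and GNB2L1, the small subunit scaffold RACK1, were called in neither comparison, with siRNA values of 0.08 and -0.01.

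Of 15 other genes with TOP mRNAs 4 rose and 0 fell under FAT4 siRNA. That is 26.7% called, near the 25.9% of all genes tested (11.9% higher and 14.1% lower). The lists here are small and allow no reading of their shares. The 4 were NAP1L1, a histone chaperone, at 0.61 ± 0.09, NPM1, a nucleolar assembly factor, at 0.36 ± 0.09, EIF3E, an initiation factor subunit, at 0.31 ± 0.09, and VIM, the filament protein vimentin, at 0.29 ± 0.09. At 48 h 5 of these 15 were lower (33.3%, where 12.8% of all genes were), with a median of -0.17. Of 14 tested genes of mTORC1 and TOP translation control 1 rose and 4 fell under FAT4 siRNA (35.7% called). EIF4EBP2, a repressor of cap-dependent initiation, rose by 0.35 ± 0.09, while MLST8 (-0.45 ± 0.11), the kinase gene RPS6KB2 (-0.37 ± 0.11), TSC2 (-0.36 ± 0.10) and AKT1S1 (-0.26 ± 0.10) fell. Of 12 chaperones and late assembly factors 5 rose and 2 fell with the siRNA (58.3% called) and 7 fell with time (58.3%). TSR2, the chaperone of RPS26, fell by 0.56 on the log2 scale and HEATR3, which helps import RPL5, by 0.47, while NMD3, the export adaptor of the large subunit, and LTV1, of small subunit assembly, rose by 0.47 and 0.46. Of 5 promoter factors 0 were called for the siRNA, with MYC at 0.10 ± 0.09, SP1 at 0.18 ± 0.09, YY1 at 0.14 ± 0.09 and GABPA at 0.09 ± 0.11.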

How the data were processed

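Per the submitters' processing notes, base calling and demultiplexing used CASAVA 1.8.2 and the tools TopHat2, SAMtools and HTSeq, with build hg19. The deposited values are whole counts of reads per gene made by the authors, and rows that name no gene were kept out of library sizes and tests. The gene annotation, strand setting and read length were not given in the sources used here. Genes passing filterByExpr (minimum count 10, minimum total 15) were fitted over all 4 libraries in edgeR 4.0.16 (R 4.3.3) by the quasi-likelihood test with TMM factors (0.973 to 1.03) and terms for siRNA and time, with Benjamini-Hochberg adjustment over 13712 genes and calls at 0.05, two-sided. Replicate cultures were not labelled, so p-values rest on the pooled dispersion.

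Ratios per time and per siRNA used TMM-scaled CPM plus 1, and plain ratios have exact 95% intervals for counting error. DESeq2 1.42.0, other scalings, filters, a correction for GC content and length, and leaving out each library were tried as alternatives. Scripts were tested on simulated data.

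Sequence sharing was computed from GENCODE release 29, a build other than that of the counts, so no count coordinates were used. Levels were divided by coding length instead of the planned transcript length, since some transcript models have long 3′ extensions. GC content and length in the correction were still taken from those transcript models, and the correction was not repeated with shorter ones. Of the tested genes, 87.8% had a transcript. Start windows and their coordinates are those of RefSeq GRCh38.p14.

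The members and lists were chosen with earlier results of these data known. Members were named by rule: RPS29, the 8 highest and 8 lowest siRNA changes, the 5 highest and 5 lowest time changes, the 5 largest differences between times, the 6 highest and 4 lowest levels, members untested or under 1 CPM, the P stalk and 5S groups, and up to 4 genes of each other list. Other called members, and other called genes of the comparison lists, were named after their values were seen. A few genes are not reported by name here.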

Additional observations from a re-analysis of the deposited data

Results flagged for a closer look

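In 4 members the siRNA ratio moved to opposite sides of 1 at the 2 times, with counting intervals that exclude 1 on each side. With 1 library per group the difference was not tested, and the intervals cover counting error only. RPL39 had a ratio of 1.19 at 24 h and 0.738 at 48 h, a difference of -0.65 in log2 ratio from 24 h to 48 h. The same values read over time gave a log2 ratio of 0.31 under control and -0.34 under FAT4 siRNA, a difference of -0.65. RPL26 had ratios of 1.05 and 0.912, a difference of -0.20, and 57.3% of its words are shared with other genes. RPS25 had 0.914 and 1.07, a difference of 0.22, with 66.0% of its words shared. RPLP0 had 0.961 and 1.07, a difference of 0.16, with 65.6% shared.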

How the results depend on the processing

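Against 4 members called higher and 10 lower under FAT4 siRNA, plain library sizes gave 2 higher, correction for GC content and length 8 higher, DESeq2 0 higher and 2 lower, and the siRNA term alone 0 higher and 0 lower. Leaving out each library in turn, with the siRNA term alone, gave 0 to 0 higher and 0 to 1 lower, and medians against -0.06 of 0.0770 without control 24 h, 0.0506 without FAT4 siRNA 48 h, -0.15 without FAT4 siRNA 24 h and -0.17 without control 48 h. Against 21 lower and 0 higher at 48 h, plain library sizes gave 11 lower, GC and length correction 44, DESeq2 5, the time term alone 0, and leaving out each library 0 to 1. With members of under 50% shared words alone, an alternative chosen after seeing the data, 39 were tested, with 2 higher and 5 lower for the siRNA and 10 lower for time. That set holds fewer members, and for the other settings the cause was not tested. Each fit with a library left out was unbalanced, so its values mix siRNA and time. Leaving out RPS29, also chosen after seeing the data, kept 4 higher and 9 lower for the siRNA and 20 lower for time. The time value of RPS29 reversed to 0.25 without FAT4 siRNA 48 h, a fit in which the only 48 h library was from control. For single genes named, 728 siRNA values and 737 time values stayed on the same side of the threshold over all alternatives. A call, or the lack of it, was lost or gained in the rest, with 145 and 110 losing a call and 5 and 30 gaining one, apart from the reversal named above. Values not called under either setting were counted as staying even where their sign changed. No paired analysis was possible because each group holds 1 library and the replicate numbers in the sample table are only names. The tested members under 5 CPM, RPS26, RPS28, RPL7, RPS10 and RPS27, had siRNA errors (SE) of 0.28 to 0.51. They share 99.7 to 100% of their coding words, and the part of reads that could not be placed in their low counts was not tested.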
